A study of Homo sapiens with 12 samples.

Results

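Liver spheroids kept under continuous exposure to 1% total parenteral nutrition (TPN) were compared after 144 h and after 24 h of exposure. All genes of the deposited table were considered in the 3 libraries of TPN 144 h (rep1 to rep3) and the 3 libraries of TPN 24 h, which are 6 of the 12 libraries of the series. The other 6 libraries came from untreated spheroids of 24 h and 144 h, with 3 libraries at each time, and served to test where the change over time under TPN differed from that without it. They also counted in the filter on low levels and, since all 12 libraries were fitted together, in the estimate of the spread behind each call. Of the 16705 genes in the table, 11713 reached a mean of 0.5 FPKM over the 12 libraries and were tested. FPKM is the number of sequenced fragments of a gene scaled by transcript length and by the fragments mapped in the library.

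The spheroids were co-cultures of HepG2/C3A cells, a clonal derivative of the HepG2 hepatoma line with hepatocyte features, and LX-2 cells, an immortalized line of activated hepatic stellate cells. C3A cells were seeded in large excess over LX-2 cells, and many spheroids were pooled for each library. Both lines are proliferating cell lines, so the cultures lack the biliary, endothelial and immune cells of the liver and hold no primary hepatocytes. TPN was SmofKabiven, a clinical mixture of amino acids with electrolytes, glucose and lipid emulsion, with added Addaven trace elements and vitamins, diluted in minimum essential medium. Exposure began once the spheroids had formed, so that 144 h of exposure and an older, larger spheroid cannot be told apart within the exposed libraries. The 3 libraries of each group came from independent experiments, per the study, and the p-values measure the spread between these samples.

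Hepatocytes take up amino acids, sugars and lipids from the blood, store or oxidize them, and secrete albumin, apolipoproteins, complement and acute phase proteins. When oxygen falls, prolyl hydroxylases stop marking hypoxia-inducible factors for breakdown, and these factors switch on genes of glycolysis, vessel growth and matrix modification. When cells leave the division cycle, genes of DNA replication, which are controlled by E2F factors, and genes of mitosis, which are controlled through the cell cycle homology region, fall together.

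The hepatocyte-like markers named for the check of the label were abundant in the exposed libraries. ALB, the gene of albumin, lay at 3807, 3835 and 3847 FPKM at 24 h and at 3974, 3674 and 3941 FPKM at 144 h, and APOA1, TTR and SERPINA1 had means between 298 and 3584 FPKM. Of the stellate markers, ACTA2 had a mean of 47.3 FPKM at 24 h, and the collagens were present at lower levels. COL1A1 had a mean of 15.1 FPKM, COL3A1 of 3.05 FPKM and COL1A2 of 1.22 FPKM, whereas DES, the gene of desmin, stayed at or below 0.09 FPKM in all 6 exposed libraries. None of the 7 endothelial markers in the table reached the filter, and together they summed to 0.37 to 1.41 FPKM in an exposed library. The leukocyte gene PTPRC stayed at or below 0.02 FPKM, although LYZ, the lysozyme gene, which is also a macrophage marker, had a mean of 1292 FPKM at 24 h. KRT7, a cholangiocyte keratin, was listed at 0.05 FPKM or less, while KRT19, a keratin of bile duct and hepatoma cells, had a mean of 99.1 FPKM at 24 h. Summed FPKM ranged from 561657 to 583722 over the 12 libraries. A rough depth of 13400000 to 14300000 fragments per library was estimated from short genes with low values, each taken to hold a single fragment. The correlation of log2(FPKM + 0.1) across genes was 0.995 to 0.996 between libraries of the same exposed group and 0.948 to 0.954 between a library of 24 h and one of 144 h, and genes are not independent replicates.

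Between 24 h and 144 h of exposure, 1114 genes rose and 2009 genes fell. A gene was called when its Benjamini-Hochberg adjusted p value in limma was below 0.05 and its log2 fold change on log2(FPKM + 0.1) was above 0.58 or below -0.58. The risen genes were 9.51% and the fallen genes 17.2% of the genes tested. Counts of risen and fallen genes per list below stand against these shares. A change of at least 2-fold was found in 576 risen and 451 fallen genes. The 3 libraries of 144 h lay wholly above those of 24 h in 1107 of the risen genes, and wholly below them in 1999 of the fallen genes. Over all genes tested, 25.2% had all libraries of 144 h above those of 24 h and 52.7% had them below. Over all tested genes, the log2 fold change had a median of -0.18 and its standard error one of 0.0593, so small falls were common on the FPKM scale. Scaling the libraries by the median ratio of their genes moved this median from -0.18 to -0.01. The risen genes made up 35.7% of the calls as deposited (1114 against 2009), 60.01% after median-ratio scaling (1634 against 1089) and 50.4% after quantile normalization (1398 against 1378). Median-ratio scaling kept all 1114 risen genes, kept 1089 of the fallen genes and turned none to the opposite direction. Counts per list with this scaling stand against 1634 risen and 1089 fallen of the 11713 genes tested.

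In untreated spheroids, 796 genes rose (6.8% of the genes tested) and 1434 fell (12.2%) between the same times. Of the 1114 genes that rose under exposure, 650 also rose without it, 448 were not called and 16 fell. Of the 2009 that fell under exposure, 1008 also fell without it, 1000 were not called and 1 rose. Whether a time change differed was tested directly as the change in exposed minus the change in untreated spheroids. This difference was called as higher in exposed spheroids in 492 genes (4.2% of the genes tested) and as lower in 195 (1.66%). Counts of called differences per list below stand against these shares of 4.2% and 1.66%. Among the risen genes, 285 had a higher and 13 a lower time change than in untreated spheroids, and among the fallen genes, 130 had a lower and 9 a higher one. A further 198 genes with a higher and 52 with a lower time change were not called in the exposed comparison itself. Across genes, the 2 time changes had a Pearson correlation of 0.841 and the same sign in 85.0% of genes.

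**Figure D1:**
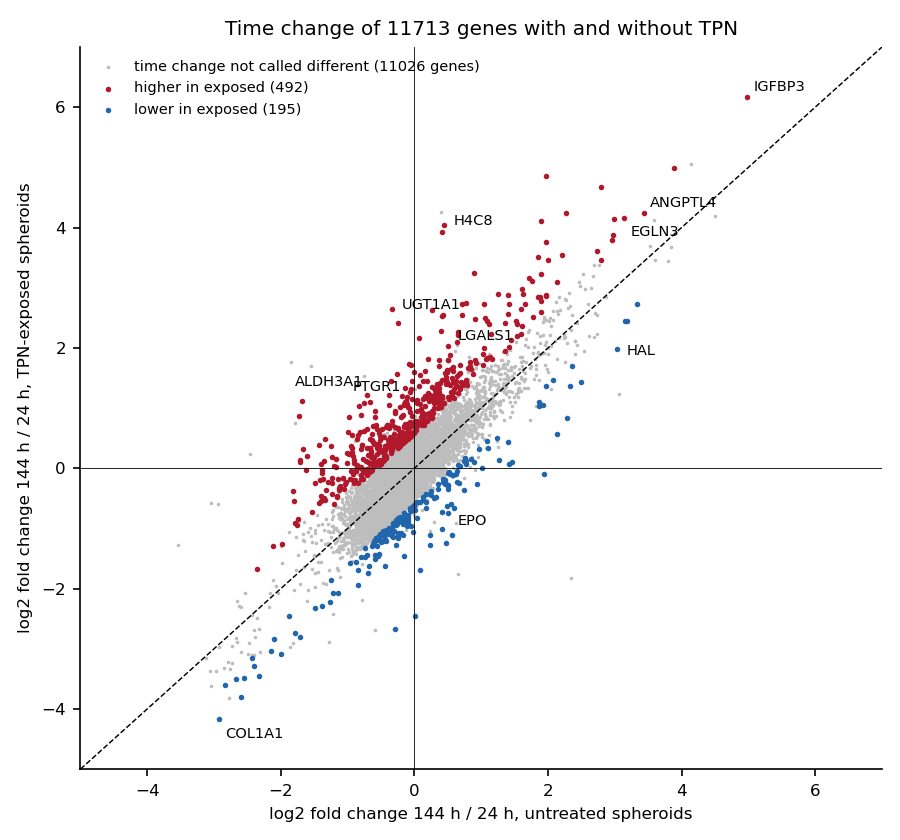
Log2 fold change from 24 h to 144 h of each of the 11713 genes tested in untreated spheroids (horizontal axis) and in TPN-exposed spheroids (vertical axis), with each point 1 gene and the dashed line marking equal change. Genes whose time change was called higher in exposed spheroids (492, red) lie above the line and those called lower (195, blue) below it, while 11026 genes (grey) were not called different.

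IGFBP3 (chromosome 7, 45912245 to 45921272 in GRCh38.p13, per the deposited table), which binds insulin-like growth factors in the medium, rose most. It lay at 0.47, 0.59 and 0.46 FPKM at 24 h and at 40.7, 45.7 and 43.5 FPKM at 144 h, without overlap. This was a log2 fold change of 6.17 ± 0.13 (SE, n = 3 per group), with an adjusted p of 2.91e-13. IL11, a cytokine of the interleukin-6 family, rose from 0.24 ± 0.036 to 10.6 ± 0.49 FPKM (SD, n = 3), a log2 fold change of 4.98. ANGPTL4, a secreted inhibitor of lipoprotein lipase, lay at 1.59, 2.13 and 2.02 FPKM at 24 h and at 37.7, 37.4 and 37.97 FPKM at 144 h. The 2 times were thus 18.9-fold apart, and the libraries of 144 h differed among themselves by less than 1 FPKM. EGLN3, a prolyl hydroxylase that marks hypoxia-inducible factors, rose 17.9-fold, from 2.5 to 46.4 FPKM. PCK1, the cytosolic enzyme that commits carbon to gluconeogenesis, lay at 1.21, 1.17 and 0.86 FPKM at 24 h and at 19.8, 20.2 and 21.8 FPKM at 144 h, a log2 fold change of 4.14 ± 0.10 (SE). DUSP5, a phosphatase that inactivates ERK, rose by 3.87 and RASD1, a Ras-like protein induced by glucocorticoids, by 3.79 on the log2 scale. TNS1, the focal adhesion protein tensin, rose by 3.69 and AQP3, a channel for water and glycerol, by 3.61. VNN1, a pantetheinase, rose 11.5-fold to 7.45 FPKM, and EEF1A2, a translation elongation factor, rose 11.1-fold to 8.63 FPKM.

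The other 4 genes among the 15 largest rises, counted over genes with a mean of at least 5 FPKM at either time, included some less certain values. TFF1, a trefoil peptide of mucous cells, rose by 5.05 on the log2 scale to 7.54 FPKM, and 1 of its 24 h libraries was listed at 0. LGALS7, a galectin with a near-identical copy, was listed at 13.2, 0 and 1.8 FPKM at 24 h and at 28.2, 24.5 and 25.4 FPKM at 144 h. Its log2 fold change was 4.26 (adjusted p = 0.00422), and groups without overlap were a condition for its choice. The 3 libraries of 24 h lay far apart, and reads may be split with its copy. H4C8, a histone H4 gene, had means of 0.373 and 5.63 FPKM, with 1 library of 24 h listed at 0. OSCAR, an immunoglobulin-like receptor, rose 12.8-fold to 13.03 FPKM.

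The largest falls were led by genes of the mesenchymal and actin-rich cell. COL1A1 (chromosome 17, 50184096 to 50201649), the main chain of type I collagen, lay at 14.2, 15.5 and 15.4 FPKM at 24 h and at 0.92, 0.62 and 0.7 FPKM at 144 h. It fell by 4.18 ± 0.14 on the log2 scale (SE, adjusted p = 7.23e-12), and the groups were far apart. TMSB4X, the actin-binding peptide thymosin beta 4, fell 12.3-fold to 1.88 FPKM, and VIM, the intermediate filament vimentin, lay at 13.7, 13.9 and 12.2 FPKM at 24 h and at 1.24, 0.97 and 1.03 FPKM at 144 h. GSTP1, a glutathione transferase that hepatocytes hardly express, fell by 3.37 and IGFBP7, a secreted matrix protein, by 2.80 on the log2 scale. HLA-B, a class I antigen-presenting molecule with close relatives that may share reads, fell 7.01-fold to 4.84 FPKM.

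A second set of large falls lay in metabolic and metal-binding genes. MT1G and MT1F, metallothioneins that bind zinc and copper, fell 4.2-fold and 3.85-fold. MT1G lay at 395, 413 and 390 FPKM at 24 h and at 101, 92.5 and 92.1 FPKM at 144 h. The members of this family resemble each other closely, so reads may be shared among them. GPD1, which makes glycerol 3-phosphate for triglycerides, fell from 34.5 to 8.42 FPKM, and PGC, a pepsinogen, from 42.7 to 9.13 FPKM. SFXN2, a carrier of the inner mitochondrial membrane, fell by 1.69, DHRS2, a dehydrogenase, by 1.58, and UCP2, a mitochondrial uncoupling protein, by 1.56 on the log2 scale. RSC1A1, a regulator of glucose transport, fell by 1.54 with a standard error of 0.285, and CDKN2C, an inhibitor of the kinases CDK4 and CDK6, fell 2.86-fold to 3.28 FPKM.

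**Figure D2:**
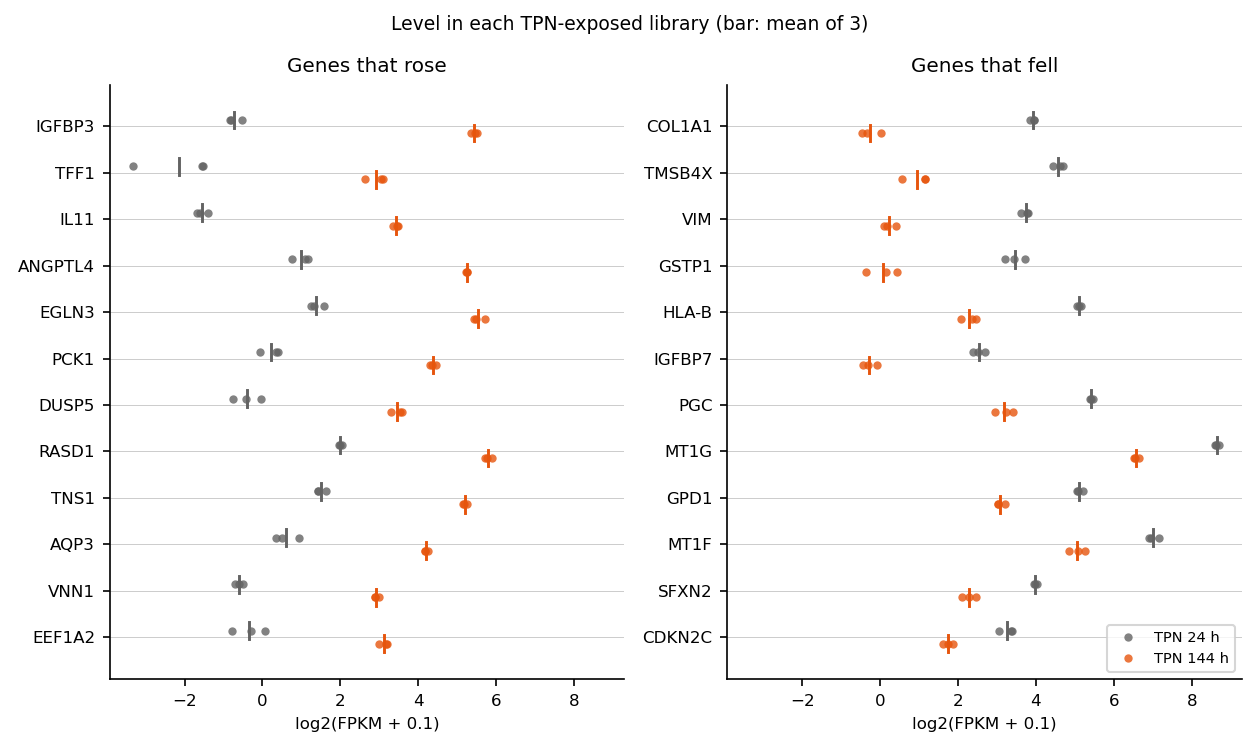
Level of the genes with large rises (left) and large falls (right) in each TPN-exposed library on log2(FPKM + 0.1), with grey points for the 3 libraries of 24 h, orange points for the 3 libraries of 144 h and a bar for the mean of each group. Separate groups were a condition for choosing the genes shown, the bars of IGFBP3 lie 6.17 apart, and TFF1 at 24 h has 1 library listed at 0.

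Hypoxia targets formed the list with the highest median. Of 28 targets tested, 24 rose, 1 fell and 3 were not called, and their median log2 fold change was 1.48, against -0.18 for all genes. NDRG1, a stress-induced protein and a standard hypoxia marker, lay at 113, 117 and 105 FPKM at 24 h and at 713, 757 and 744 FPKM at 144 h, a log2 fold change of 2.73 ± 0.054 (SE). VEGFA, the endothelial growth factor, rose from 64.1 to 287 FPKM and CA9, a carbonic anhydrase of the cell surface, from 28.6 to 124 FPKM. In all of these the libraries of 144 h lay above those of 24 h. Untreated spheroids gave 25 risen targets and a median of 1.45. The difference in time change was called as higher in exposed spheroids for 2 targets and as lower for 2, and 24 were not called.

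EPO, the gene of the hormone erythropoietin, went the other way. It lay at 7.97, 7.56 and 6.78 FPKM at 24 h of TPN and at 5.15, 3.85 and 4.29 FPKM at 144 h, so that no library of 144 h reached the lowest of 24 h. The fall was 0.74 ± 0.091 on the log2 scale (adjusted p = 4.7e-06), and after median-ratio scaling it was 0.57, under the fold threshold. In untreated spheroids EPO went from 8.9 to 12.7 FPKM, and the difference in time change was -1.24 ± 0.13 (SE, adjusted p = 1.55e-05).

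Among 21 glycolysis enzymes, 5 rose and 4 fell, with a median of 0.03, against 9.51% risen and 17.2% fallen over all genes tested. HK2, a hexokinase that is low in the adult liver, rose 3.06-fold to 236 FPKM, and ENO2, the neuronal enolase, rose from 50.6 to 177 FPKM. ENO3, the muscle enolase, fell from 19.4 to 10.4 FPKM. LDHB, the lactate dehydrogenase chain that is low in hepatocytes, fell from 3.92 ± 0.37 to 0.363 ± 0.14 FPKM (SD, n = 3), close to its change without TPN (log2 fold change -3.15 and -3.13).

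The promoters of these target genes were searched for the core of the hypoxia response element, ACGTG or CACGT on the other strand, in the 250 bases before each start site in RefSeq GRCh38.p14. Of 24 hypoxia targets with a promoter in the RefSeq table, 12 held the pattern, against 18.7% of all 27305 promoters and 23.7% of the promoters of tested genes. It was also found in 15 of 39 promoters of mitosis genes and in 10 of 39 of replication genes, which are lists that fell. Of the targets that hold it, 2 with large rises are shown, which need not be the largest. The pattern is in capitals, and the start site follows the last base. In ANGPTL4 (chr19:8363905-8364154, plus strand) it begins 234 bases before the start. In BHLHE40 (chr3:4979187-4979436, plus strand), a clock-linked repressor, it occurs 4 times, and 2 of the matches overlap on opposite strands as CACGTG. A match is a description of the letters and not evidence of a bound site.
ANGPTL4: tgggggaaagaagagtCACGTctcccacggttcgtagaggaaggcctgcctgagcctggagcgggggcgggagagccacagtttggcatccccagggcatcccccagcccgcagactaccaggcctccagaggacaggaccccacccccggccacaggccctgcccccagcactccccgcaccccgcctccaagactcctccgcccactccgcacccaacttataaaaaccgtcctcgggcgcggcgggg
BHLHE40: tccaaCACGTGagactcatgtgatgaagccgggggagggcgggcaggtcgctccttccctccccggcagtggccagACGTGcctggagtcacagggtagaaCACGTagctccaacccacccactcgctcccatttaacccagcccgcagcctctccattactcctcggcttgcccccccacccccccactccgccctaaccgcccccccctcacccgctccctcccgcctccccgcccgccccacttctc

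Genes of cell division fell almost without exception. Of 44 genes of DNA replication and S phase, 43 fell and none rose, with a median log2 fold change of -1.07. Of 46 genes of mitosis and the spindle, 45 fell and none rose, with a median of -0.96. With median-ratio scaling these counts were 39 and 41. RRM2, which supplies deoxynucleotides for DNA synthesis, lay at 92.9, 88.4 and 92.9 FPKM at 24 h and at 38.6, 36.3 and 38.02 FPKM at 144 h, a fall of 1.28 ± 0.031 on the log2 scale. TK1, the thymidine kinase of S phase, fell 2.55-fold, and GINS2 and GINS4, subunits of the replicative helicase, fell 2.47-fold and 2.69-fold. MKI67, the gene of the proliferation marker Ki-67, lay at 39.2, 38.4 and 41.6 FPKM at 24 h and at 18.1, 17.5 and 16.4 FPKM at 144 h, so the 2 times lay more than 20 FPKM apart. CDC20, an activator of the anaphase-promoting complex, fell from 83.6 to 33.2 FPKM, FOXM1, a factor that drives mitotic genes, from 41.9 to 18.4 FPKM and KIF20A, a kinesin of cytokinesis, from 37.7 to 16.7 FPKM. The 2 members not called were CCNE2, a cyclin of the entry into S phase (-0.54, or -0.65 and called without TPN 24 h replicate 3), and BUB3, a spindle checkpoint protein (-0.38).

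In untreated spheroids, 35 of the 44 replication genes and 17 of the 46 mitosis genes fell, with medians of -0.72 and -0.52. The difference in time change had a median of -0.34 over the replication genes and -0.43 over the mitosis genes, and it was called in none of the former and in 3 of the latter. One of these was AURKB, a mitotic kinase, which went from 52.2 to 24.2 FPKM under exposure and from 56.1 to 39.9 FPKM without it (difference -0.62 ± 0.065, adjusted p = 1.69e-05). Some members were not called only for the fold threshold. In limma the difference was -0.46 for FOXM1 (adjusted p = 9.09e-06) and -0.48 for CDC20 (1.9e-05). It was -0.56 for GINS4 (0.000387) and -0.42 for GINS2 (0.00108), while CCNE2 went the other way (0.34, adjusted p = 0.11).

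CDK inhibitors, D cyclins and p53 targets form a list that holds both brakes and drivers of the division cycle. Of 28 tested, 7 rose and 6 fell, against 9.51% and 17.2% of all genes tested, and 10 rose and 5 fell with median-ratio scaling. CDKN1A, the inhibitor p21, lay at 42.1, 40.5 and 40.3 FPKM at 24 h and at 72.2, 73.3 and 77.8 FPKM at 144 h, and untreated spheroids had means of 40.4 and 35.1 FPKM. The difference in time change was 1.06 ± 0.058 (SE, adjusted p = 6.95e-08). GADD45B, a stress-induced growth arrest gene, rose 6.93-fold, CDKN2B, the inhibitor p15, rose 6.62-fold from 0.213 FPKM, and TNFRSF10B, a death receptor, rose from 55.6 to 133 FPKM.

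The promoters of the division genes were searched for a cell cycle homology region, TTTGAA or TTCAAA on the other strand, and for the E2F patterns TTTCCCGC, TTTCGCGC, TTTGCCGC and TTTGGCGC, also on both strands. The homology region was found in 21 of 39 mitosis promoters, against 13.6% of all promoters, 8.31% of the promoters of tested genes, 1 of 39 replication promoters and none of 24 hypoxia targets. An E2F pattern was found in 15 of 39 replication promoters, against 2.79% of all promoters, 4.58% of those of tested genes and 3 of 39 mitosis promoters. In the sequences, the pattern is in capitals and the start site follows the last base. Among the holders of each pattern, 2 members with large falls are shown, which need not be the largest. They are CDC20 (chr1:43358731-43358980, plus strand) and MKI67 (chr10:128126424-128126673, minus strand) for the homology region, with 2 matches each. GINS2 (chr16:85688955-85689204, minus strand) and LIG1 (chr19:48170345-48170594, minus strand), the DNA ligase that joins Okazaki fragments, are shown for the E2F pattern.
CDC20: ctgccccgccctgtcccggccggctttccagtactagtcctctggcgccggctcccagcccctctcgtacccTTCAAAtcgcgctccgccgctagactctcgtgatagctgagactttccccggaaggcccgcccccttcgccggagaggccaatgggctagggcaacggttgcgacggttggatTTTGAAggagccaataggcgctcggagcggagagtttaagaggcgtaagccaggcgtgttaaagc
MKI67: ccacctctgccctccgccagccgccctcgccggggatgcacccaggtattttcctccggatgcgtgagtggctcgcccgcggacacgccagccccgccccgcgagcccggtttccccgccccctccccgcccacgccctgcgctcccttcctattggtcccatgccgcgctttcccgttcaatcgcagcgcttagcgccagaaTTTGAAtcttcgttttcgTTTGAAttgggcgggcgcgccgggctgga
GINS2: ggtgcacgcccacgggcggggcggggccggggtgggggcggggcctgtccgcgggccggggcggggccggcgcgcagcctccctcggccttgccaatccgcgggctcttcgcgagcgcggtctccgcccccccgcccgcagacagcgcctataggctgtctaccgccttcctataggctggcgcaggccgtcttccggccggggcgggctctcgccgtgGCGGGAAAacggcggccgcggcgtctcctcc
LIG1: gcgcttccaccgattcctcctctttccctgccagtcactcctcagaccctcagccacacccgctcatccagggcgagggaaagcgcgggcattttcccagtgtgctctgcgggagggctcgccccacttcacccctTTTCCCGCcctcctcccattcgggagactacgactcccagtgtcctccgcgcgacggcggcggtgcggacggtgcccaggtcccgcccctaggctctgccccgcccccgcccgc

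**Figure D3:**
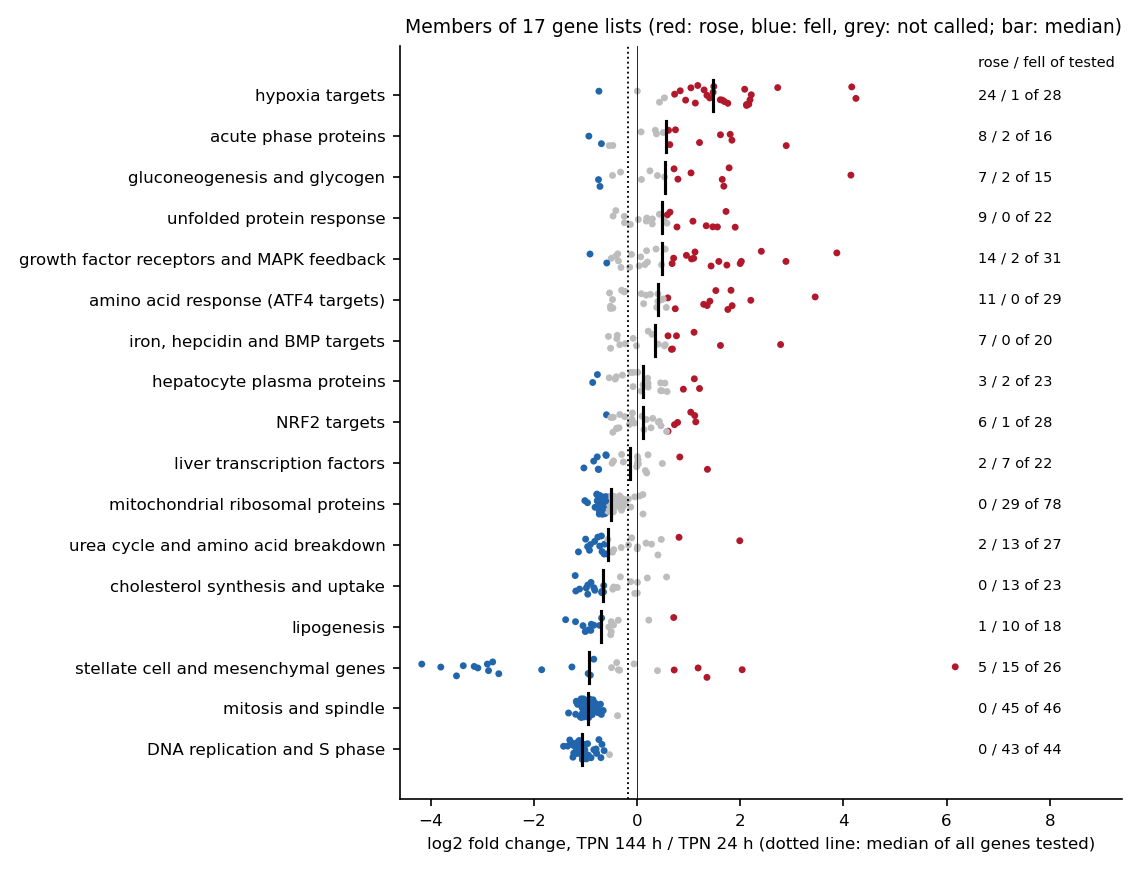
Log2 fold change from TPN 24 h to TPN 144 h of the tested members of 17 gene lists, with each point 1 gene (red risen, blue fallen, grey not called), a bar at each list's median and a dotted line at the median of all genes tested (-0.18). The members of DNA replication and of mitosis lie close together near -1, the hypoxia targets spread from EPO on the left to above 4, and the stellate and mesenchymal genes divide into a strongly fallen and a risen set.

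Stellate and mesenchymal genes split into falling and rising sets. Of 26 tested, 15 fell and 5 rose, with a median of -0.93. Beside COL1A1, COL3A1, the chain of type III collagen, lay at 2.69, 3.22 and 3.23 FPKM at 24 h and at 0.15, 0.15 and 0.08 FPKM at 144 h, a fall of 3.81 ± 0.18 on the log2 scale. COL1A2, the second chain of type I collagen, fell 7.49-fold, CAV1, the coat protein of caveolae, fell 10.3-fold and TAGLN, a smooth muscle actin-binding protein, fell 3.61-fold. At 144 h these 4 genes were all under 1 FPKM in every exposed library, so their folds rest on few fragments. In bulk RNA, fewer cells of a type and less RNA per cell cannot be told apart. ACTA2, the smooth muscle actin of activated stellate cells, did not follow them, with 48.0, 48.3 and 45.8 FPKM at 24 h and 43.6, 45.9 and 46.6 FPKM at 144 h (log2 fold change -0.06 ± 0.04, adjusted p = 0.187). PDGFRB, the receptor of platelet-derived growth factor, had a log2 fold change of -0.36, under the fold threshold.

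The 5 members that rose were IGFBP3, LGALS1, LOX, TPM2 and S100A6, which are not restricted to stellate cells. LGALS1, the carbohydrate-binding galectin 1, lay at 86.7, 84.8 and 80.5 FPKM at 24 h and at 326, 359 and 350 FPKM at 144 h. LOX, which crosslinks collagen and is also a hypoxia target, rose from 64.8 to 166 FPKM, TPM2, a tropomyosin, from 11.4 to 25.8 FPKM and S100A6, a calcium-binding protein, from 72.2 ± 8.4 to 119 ± 11 FPKM (SD, n = 3). Through these genes the summed level of the list rose, from 531 to 557 FPKM in the libraries of 24 h to 909 to 953 FPKM in those of 144 h. Untreated spheroids had 18 falls, 3 rises and a median of -1.40. The difference was called as lower in exposed spheroids for 5 members, among them COL1A1 (-1.25), COL3A1 (-1.22) and VIM (-0.83), and as higher for 6, among them LGALS1 (1.54 ± 0.053, adjusted p = 2.36e-09), S100A6 (1.30) and IGFBP3 (1.19).

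Among 26 genes of basement membrane, integrins and matrix receptors, 5 rose and 7 fell, against 9.51% and 17.2% of all genes tested. With median-ratio scaling 7 of the 26 rose and 5 fell. ITGA2, the collagen-binding integrin chain, lay at 20.6, 19.6 and 20.4 FPKM at 24 h and at 55.9, 59.7 and 52.3 FPKM at 144 h, while COL4A1, a chain of basement membrane collagen, fell from 1.65 to 0.113 FPKM. Of these genes, 8 had a higher time change in exposed spheroids and 1 a lower one, against 4.2% and 1.66% of all genes tested. In the list of TGF-beta and YAP targets, 5 of 21 rose and 2 fell, against the same 9.51% and 17.2%. With median-ratio scaling 6 rose and none fell. In untreated spheroids 8 of them rose and 1 fell, and the difference in time change was called as lower in exposed spheroids for 5 and as higher for 1, against 1.66% and 4.2% of all genes tested. It was higher for TGFB1, the profibrotic cytokine itself, which rose from 35.4 to 66.4 FPKM (difference 0.68 ± 0.063, adjusted p = 7.16e-06). AXL, a receptor kinase, rose 3.34-fold.

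Many genes of lipid synthesis fell. Of 23 genes of cholesterol synthesis and uptake, 13 fell and none rose (median -0.65), and of 18 lipogenesis genes, 10 fell and 1 rose (median -0.71). With median-ratio scaling the falls were 9 and 8. FASN, the fatty acid synthase, lay at 163, 174 and 175 FPKM at 24 h and at 90.1, 82.9 and 82.1 FPKM at 144 h, without overlap. DGAT1 and DGAT2, which attach the last fatty acid of triglycerides, fell 2.61-fold and 2.29-fold, and ACACA, the acetyl-CoA carboxylase, fell 2.07-fold. AGPAT2, an acyltransferase of phosphatidic acid synthesis, was the member that rose, from 36.8 to 60.2 FPKM. In the cholesterol pathway, LSS, which closes the sterol rings, fell 2.28-fold, TM7SF2, a sterol reductase, 2.3-fold, and MVK, the mevalonate kinase, 2.17-fold. Without TPN, 5 cholesterol genes and 8 lipogenesis genes fell (medians -0.36 and -0.51), FASN, ACACA, DGAT1 and DGAT2 among them. The difference in time change was called as lower in exposed spheroids for 2 cholesterol genes and for no lipogenesis gene.

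Some lipid droplet genes moved the other way. PLIN2, the coat protein of hepatic lipid droplets, lay at 526, 548 and 534 FPKM at 24 h and at 1602, 1569 and 1615 FPKM at 144 h, a log2 fold change of 1.57 ± 0.036. HILPDA, a hypoxia-induced inhibitor of lipolysis, rose 5.47-fold, and LPIN2, a phosphatidate phosphatase, rose 2-fold. CIDEB, which lipidates VLDL particles, fell from 20.8 to 13.1 FPKM, a fall that was under the fold threshold with median-ratio scaling (-0.48) and with quantile normalization (-0.50). In all, 3 of 14 lipid droplet genes rose and 2 fell, and 23 genes of fatty acid oxidation and PPAR targets had 3 rises and 4 falls. Over all genes tested, 9.51% rose and 17.2% fell. With median-ratio scaling the lipid droplet genes had 5 rises and no falls, and the list of fatty acid oxidation turned to 6 rises and 2 falls. FABP1, the main fatty acid binding protein of liver, lay at 1256, 1183 and 1081 FPKM at 24 h and at 2215, 2423 and 2376 FPKM at 144 h, while HADH, an enzyme of mitochondrial beta oxidation, fell 2-fold. Of the 23 genes, 7 had a higher time change in exposed spheroids, FABP1 among them (0.70), and 1 a lower one, HADH (-0.63). The shares over all genes tested were 4.2% and 1.66%. Of 19 apolipoprotein and lipoprotein assembly genes, APOA4 rose from 23.2 to 42.7 FPKM, APOB, the scaffold of VLDL, fell from 684 to 399.5 FPKM, and the others were not called.

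Plasma proteins, the main products of hepatocytes, had calls in both directions. ALB did not change beyond the spread of its libraries (log2 fold change 0.01 ± 0.044, adjusted p = 0.819). AHSG, the carrier protein fetuin-A, rose from 2915 to 5426 FPKM and ITIH3, a serum hyaluronan-binding protein, from 59.1 to 137 FPKM. SERPINA6, the cortisol carrier, fell from 160 to 93.5 FPKM. Of 23 plasma protein genes, 3 rose and 2 fell, with the remaining calls in ITIH1 (0.343 to 0.837 FPKM) and FETUB (2.7 to 1.47 FPKM). Over all genes tested these shares were 9.51% and 17.2%. With median-ratio scaling 8 of the 23 rose and 2 fell, and with quantile normalization 6 rose and 4 fell. For ALB the difference in time change was -0.45 ± 0.062 (adjusted p = 0.000139), under the fold threshold, with untreated means of 4392 and 6044 FPKM.

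Of 22 liver transcription factors, 7 fell and 2 rose, against 17.2% and 9.51% of all genes tested, with a median of -0.14. With median-ratio scaling the median turned to 0.04. There 3 fell and 3 rose, against 1089 and 1634 of all 11713 genes tested. CEBPA, a factor of the quiescent hepatocyte, lay at 54.1, 55.4 and 56.9 FPKM at 24 h and at 26.6, 25.3 and 29.5 FPKM at 144 h. Its relative CEBPB, which acts in the acute phase and in regeneration, rose from 34.1 to 87.9 FPKM. The pair thus changed places, with CEBPA the higher at 24 h and CEBPB the higher at 144 h in each exposed library. The same held in each untreated library, with CEBPA means of 69.4 and 46.1 FPKM and CEBPB means of 28.7 and 54.5 FPKM. The differences in time change were -0.44 and 0.44, under the fold threshold. Under exposure, FOXA1, a pioneer factor, fell 1.79-fold and HNF4A, the central factor of hepatocyte identity, 1.52-fold. HNF4A was under the fold threshold with median-ratio scaling (-0.43) and with quantile normalization (-0.43).

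The nuclear receptors and sensors differed among themselves. PPARG, a receptor that promotes lipid storage, lay at 9.12, 11.9 and 10.7 FPKM at 24 h and at 24.2, 24.0 and 24.1 FPKM at 144 h. AHR, the dioxin receptor, rose 1.67-fold, and NR1I2, the pregnane X receptor, fell 1.68-fold, or by 0.57 on the log2 scale and under the fold threshold with median-ratio scaling. NR1H3 and NR1H2, the liver X receptors, had log2 fold changes of -0.46 and 0.02, PPARA of 0.19, PPARD of 0.27 and NFE2L2, the gene of NRF2, of -0.02, and none of these 5 was called. CYP7A1, the rate-limiting enzyme of bile acid synthesis, did not exceed 0.04 FPKM in any exposed library and was not tested.

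Acute phase genes had more rises than falls. Of 16 tested, 8 rose and 2 fell, with a median of 0.56, against 9.51% risen and 17.2% fallen over all genes tested. SERPINA3, a protease inhibitor of the acute phase, lay at 437, 434 and 434 FPKM at 24 h and at 1468, 1499 and 1591 FPKM at 144 h, a log2 fold change of 1.80 ± 0.039. SOCS3, a feedback inhibitor of interleukin-6 signalling, rose 7.41-fold to 5.03 FPKM, FGL1, a secreted fibrinogen-like protein, 3.57-fold and CP, the copper-carrying ceruloplasmin, 3.06-fold. HP, the haemoglobin-binding haptoglobin, rose from 19.97 to 30.5 FPKM, and it was under the fold threshold in the absence of TPN 24 h replicate 2 (0.57) or TPN 144 h replicate 3 (0.56). SAA4 and ORM2 fell 1.91-fold and 1.62-fold, and ORM2 was under the fold threshold with median-ratio scaling (-0.52). Untreated spheroids had 4 rises and 4 falls and a median of 0.01. The difference was called as higher in exposed spheroids for 9 of the 16 genes and as lower for none, against 4.2% and 1.66% of all genes tested. It was 1.30 ± 0.056 for SERPINA3, 1.43 ± 0.097 for HP and 1.27 ± 0.22 for SOCS3.

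Of 32 complement and coagulation genes, 10 rose and 3 fell, against 9.51% and 17.2% of all genes tested. C5, the source of the anaphylatoxin C5a, lay at 11.8, 11.2 and 10.9 FPKM at 24 h and at 43.0, 46.6 and 43.1 FPKM at 144 h. C8B, a chain of the membrane attack complex, rose from 0.377 to 1.45 FPKM, MASP1, a protease of the lectin pathway, rose 2.44-fold and MASP2, its partner, fell 2.22-fold.

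Genes of amino acid breakdown and of the stress response to amino acid shortage had calls of mostly opposite sign. Of 27 genes of the urea cycle and amino acid breakdown, 13 fell and 2 rose (median -0.57), and 7 fell with median-ratio scaling. GLDC, of the glycine cleavage system, lay at 47.0, 47.7 and 48.9 FPKM at 24 h and at 25.2, 23.4 and 25.1 FPKM at 144 h, without overlap. SDSL, a serine dehydratase-like enzyme, fell 2.2-fold, while HAL, which degrades histidine, rose 3.97-fold to 2.13 FPKM and TAT, which degrades tyrosine, rose 1.76-fold. HAL rose more without TPN, from 0.38 to 3.8 FPKM (difference -1.04 ± 0.23, adjusted p = 0.00431).

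Of 29 targets of ATF4, the factor of the amino acid response, 11 rose and none fell (median 0.40). ATF3, a stress-induced factor, lay at 3.1, 3.87 and 3.18 FPKM at 24 h and at 35.2, 41.0 and 37.4 FPKM at 144 h, a log2 fold change of 3.45 ± 0.078. DDIT3, the death-promoting factor CHOP, rose 4.61-fold, GDF15, a circulating stress hormone, from 150 to 537 FPKM and CHAC1, which degrades glutathione, 3.53-fold. Of 22 genes of the unfolded protein response, 9 rose and none fell (median 0.48). PPP1R15A, which restores translation after stress, rose 3.73-fold, DNAJB9, a cochaperone of the endoplasmic reticulum, 3.3-fold, ERN1, the sensor IRE1, 2.94-fold and HERPUD1, of protein degradation at the endoplasmic reticulum, 2.76-fold. In untreated spheroids 12 ATF4 targets and 7 genes of the unfolded protein response rose. The difference was called for 1 gene of the 2 lists together, CHAC1 (0.75 ± 0.21, adjusted p = 0.0159).

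Of 15 genes of gluconeogenesis and glycogen, 7 rose and 2 fell (median 0.53). Beside PCK1, these included GBE1, the glycogen branching enzyme, at 25.7, 26.1 and 24.3 FPKM at 24 h and at 79.3, 79.8 and 80.0 FPKM at 144 h. PPP1R3B and PPP1R3C, which target a phosphatase to glycogen, rose 3.44-fold and 3.2-fold. SLC37A4, the glucose 6-phosphate transporter of the endoplasmic reticulum, and SLC2A2, the glucose transporter GLUT2, fell 1.68-fold and 1.65-fold, and both were under the fold threshold with median-ratio scaling (-0.57 and -0.55), as was SLC37A4 with quantile normalization (-0.58).

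NRF2 targets, which defend against oxidants and electrophiles, held 6 rises and 1 fall among 28 genes under exposure (median 0.11), and no rise and 10 falls without it (median -0.38). All genes tested had 9.51% rises and 17.2% falls under exposure, and 6.8% and 12.2% without it. AKR1C1, a reductase of steroids and aldehydes, lay at 342, 341 and 342 FPKM at 24 h and at 725, 738 and 791 FPKM at 144 h, while untreated spheroids had means of 168 and 171 FPKM. PTGR1, a reductase of prostaglandins and alkenals, rose from 20.5 to 42.3 FPKM under exposure and went from 8.65 to 4.86 FPKM without it. ALDH3A1, an aldehyde dehydrogenase, rose 2.17-fold to 2.91 FPKM and fell in untreated spheroids (difference 2.80 ± 0.265, adjusted p = 7.81e-06). GCLC, the first enzyme of glutathione synthesis, rose 1.72-fold to 130 FPKM. The difference was called as higher in exposed spheroids for 8 of the 28 genes and as lower for none, against 4.2% and 1.66% of all genes tested. AKR1C1 has close relatives whose reads may be shared.

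Enzymes of drug metabolism were mixed. Of 12 cytochrome P450 genes tested, 3 rose and 2 fell. CYP2B6, an enzyme of many drugs, lay at 1.87, 1.98 and 1.86 FPKM at 24 h and at 6.17, 6.1 and 6.36 FPKM at 144 h, and CYP1A1, the classical AHR target, rose 2.09-fold. CYP4F12 and CYP2W1 fell 1.8-fold and 1.78-fold. Of 24 conjugating enzymes, 4 rose and 6 fell, but 4 rose and 1 fell with median-ratio scaling and with quantile normalization. Over all genes tested, 9.51% rose and 17.2% fell as deposited. UGT1A1, which conjugates bilirubin, lay at 0.47, 0.38 and 0.41 FPKM at 24 h and at 2.89, 2.87 and 3.69 FPKM at 144 h, while untreated spheroids had means of 0.293 and 0.21 FPKM. This gave a difference in time change of 2.98 ± 0.31 (adjusted p = 1.67e-05). UGT1A1 and UGT1A6, which rose 3.14-fold, have exons in common, so that their reads cannot be fully separated. UGT2B4, of bile acid conjugation, rose from 0.107 to 1.23 FPKM. GSTA2, a glutathione transferase of liver, rose from 5.88 to 17.6 FPKM, with untreated means of 4.93 and 4.10 FPKM. Its near-identical relative GSTA1 was not called under exposure, with means of 4.24 and 5.59 FPKM (log2 fold change 0.39). In untreated spheroids GSTA1 fell from 4.37 to 1.56 FPKM. The difference in time change was 1.82 in both genes.

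Of 20 genes of iron, hepcidin and BMP signalling, 7 rose and none fell, against 9.51% and 17.2% of all genes tested. HAMP, the iron hormone hepcidin, lay at 28.9, 37.8 and 30.5 FPKM at 24 h and at 60.1, 75.2 and 73.5 FPKM at 144 h. These levels were below the untreated means of 143 and 408 FPKM, and the difference in time change was -0.41 ± 0.14 (adjusted p = 0.0382), under the fold threshold. BMP6, which signals iron load to hepcidin, rose 6.87-fold to 3.79 FPKM. SLC40A1, the iron exporter ferroportin, rose from 26.0 to 44.1 FPKM, with untreated means of 20.2 and 19.3 FPKM (difference 0.83 ± 0.056). Of 13 metallothionein and zinc transporter genes, 3 fell and 1 rose, near the 17.2% and 9.51% of all genes tested. The 3 that fell were metallothioneins, MT1E 2.35-fold beside MT1G and MT1F. The zinc importer SLC39A10 rose 1.52-fold, under the fold threshold without TPN 24 h replicate 2 (0.56). Of 21 selenoprotein genes, 1 rose and 5 fell, against 9.51% and 17.2% of all genes tested. GPX3, the glutathione peroxidase of plasma, rose from 128 to 419 FPKM, DIO1, a thyroid hormone deiodinase, fell 1.95-fold, and SELENOH fell 3.19-fold to 0.27 FPKM. SELENOM fell 2.09-fold with adjusted p = 0.0162 and was not called without TPN 24 h replicate 2 (-0.82, adjusted p = 0.0767).

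Of 31 growth factor receptors and genes of MAPK feedback, 14 rose and 2 fell (median 0.47). AREG, a ligand of the EGF receptor, lay at 0.63, 1.16 and 1.07 FPKM at 24 h and at 7.5, 7.6 and 7.31 FPKM at 144 h. DUSP1, another MAP kinase phosphatase, rose 5.3-fold and FOSL2, a subunit of AP-1, 4.05-fold. FGFR1 and FGFR4, the latter the bile acid-linked receptor of hepatocytes, fell 1.88-fold and 1.5-fold. FGFR4 was close to the threshold, and it was under it with median-ratio scaling (-0.41), with quantile normalization (-0.44) and without replicate 2 of TPN 24 h (-0.58) or of TPN 144 h (-0.57). Of 16 genes of the IGF axis, 6 rose and 3 fell. IGF2, a growth factor of fetal liver, lay at 945, 894 and 852 FPKM at 24 h and at 1925, 1812 and 1790 FPKM at 144 h, and IGFBP1, its binding protein, rose 2.4-fold to 784 FPKM.

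Interferon response genes had 6 rises and 7 falls among 27, against 9.51% risen and 17.2% fallen over all genes tested. With median-ratio scaling they had 8 rises and 6 falls, and their median of -0.15 turned to 0.03. IFITM1, which blocks virus entry, rose from 35.6 to 132 FPKM, and HLA-F fell 2.97-fold to 0.213 FPKM. In retinoid handling 2 of 16 genes rose and 3 fell, near the shares of all genes tested, and 2 rose and 1 fell with median-ratio scaling. CRABP2, a retinoic acid carrier, rose from 0.203 to 1.63 FPKM and RBP5, a retinol carrier, fell 2.73-fold. Of 31 clustered histone genes, 13 rose and 6 fell. H2BC5 lay at 3.25, 2.19 and 2.99 FPKM at 24 h and at 15.7, 17.7 and 15.9 FPKM at 144 h, H2AC15 rose from 0.08 to 2.21 FPKM with 2 libraries of 24 h listed at 0, and H2AC14 and H3C15 fell 6.48-fold and 6.4-fold to levels under 0.4 FPKM. These transcripts are near-identical copies and most lack a poly(A) tail, and the libraries were made from purified mRNA, so their levels are uncertain.

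Ribosomal protein genes of the mitochondrion were called as falls only, while most of those of the cytosol rose by less than the fold threshold. Of 78 mitochondrial ribosomal protein genes, 29 fell and none rose, against 17.2% and 9.51% of all genes tested, with a median of -0.50. With median-ratio scaling 7 of the 78 fell, near the share of all genes tested (1089 of 11713). MRPL20 lay at 122, 121 and 132 FPKM at 24 h and at 67.0, 64.1 and 54.8 FPKM at 144 h, and MRPL1 fell 1.95-fold. Of 84 cytosolic ribosomal protein genes, 3 rose and 2 fell, with a median of 0.32, and 25 rose and 1 fell with median-ratio scaling. With the adjusted p value alone, 74 of the 84 rose and 7 fell. Their summed level was 109581 to 114225 FPKM in the exposed libraries of 24 h and 139376 to 142017 FPKM in those of 144 h. Untreated libraries had sums of 110225 to 114847 FPKM at 24 h and of 141045 to 147044 FPKM at 144 h. Of 77 oxidative phosphorylation subunits of the nucleus, 10 fell and none rose (median -0.35), and 2 fell with median-ratio scaling, with NDUFB10, a subunit of complex I, falling from 136 to 75.1 FPKM. Of 37 proteasome subunits, 4 fell and none rose (median -0.45), and 2 fell with median-ratio scaling. The shares that fell in the last 2 lists were below the 17.2% of all genes tested. The difference between exposed and untreated spheroids was called for none of the genes of these 4 lists.

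**Figure D4:**
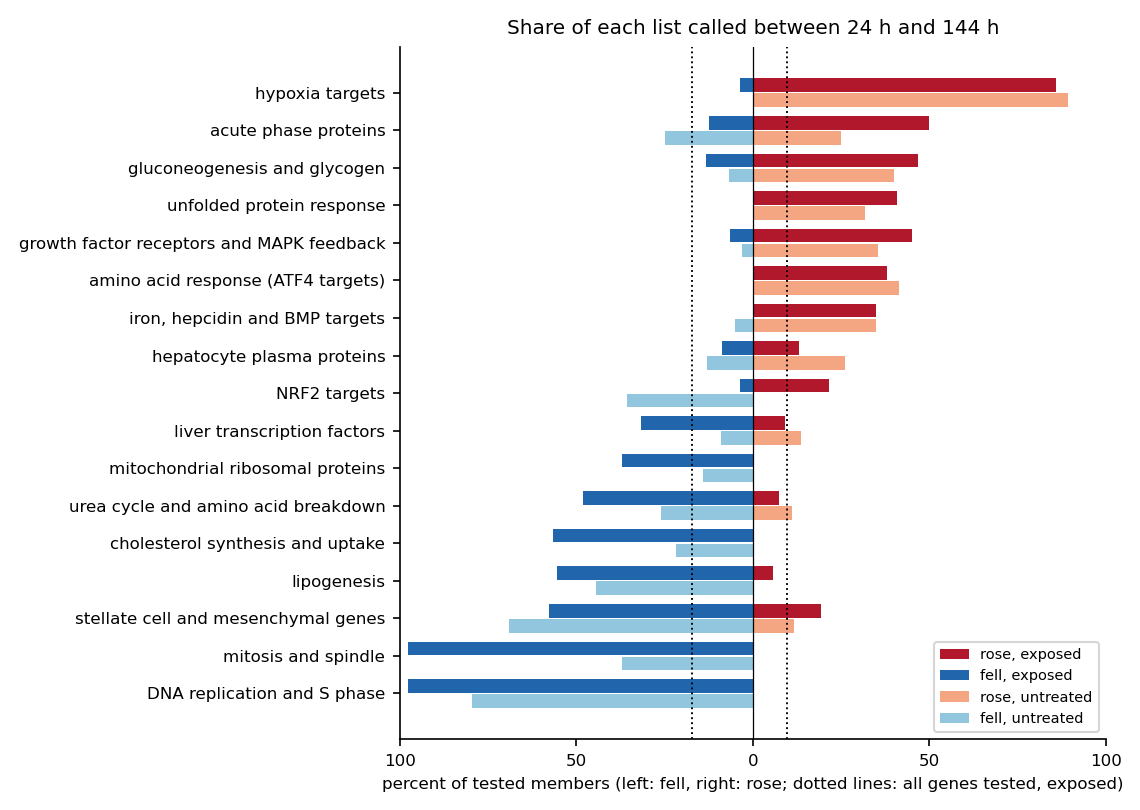
Percent of the tested members of each gene list that rose (right) or fell (left) between 24 h and 144 h in exposed spheroids (dark bars) and in untreated spheroids (pale bars), in red or orange for risen and blue for fallen, with dotted lines at the percent of all tested genes called in exposed spheroids (9.51 risen, 17.2 fallen). Nearly all members of the 2 cell division lists fell under exposure, while 6 of 28 NRF2 targets rose in exposed spheroids and none in untreated ones.

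Among the genes named whose difference was called, the time change exceeded that of untreated spheroids most in H4C8 (3.61), H2AC15 (3.52), UGT1A1 (2.98), ALDH3A1 (2.80), H2BC5 (2.12) and CRABP2 (2.01). SERPINE2, a protease inhibitor of the matrix, lay at 1.36, 2.17 and 1.57 FPKM at 24 h and at 9.33, 10.8 and 10.6 FPKM at 144 h of TPN, and untreated spheroids had means of 2.24 and 3.73 FPKM (difference 1.83 ± 0.19). VNN1 rose in both and more under exposure (difference 1.67), and EEF1A2 likewise (1.46). On the other side, COMP, a cartilage matrix protein, lay at 10.6, 12.2 and 11.5 FPKM at 24 h and at 3.88, 3.83 and 4.62 FPKM at 144 h of TPN, with untreated means of 13.2 and 11.8 FPKM (difference -1.30 ± 0.12, adjusted p = 5.95e-06). SOAT2, which esterifies cholesterol in hepatocytes, went from 31.7 to 19.1 FPKM under exposure and from 29.6 to 39.3 FPKM without it (difference -1.14), and its fall was under the fold threshold with median-ratio scaling (-0.56) and with quantile normalization (-0.57). LCN15, a lipocalin, was not called under exposure (-0.36) and rose without it (difference -1.10), and MIXL1, a homeobox factor of the embryo, fell 2.43-fold under exposure (difference -1.01).

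The 16 genes that rose under exposure and fell without it included TTC39A (difference 1.92), S100A2 (1.85), TTC9 (1.76) and DUSP13, a phosphatase (1.82), beside PTGR1, ALDH3A1, HP and S100A6. TTC9 lay at 1.45, 1.44 and 1.72 FPKM at 24 h and at 3.11, 3.41 and 3.74 FPKM at 144 h of TPN, and its untreated means were 1.8 and 1.11 FPKM. The single gene of the opposite kind was C1orf210, with means of 3.8 and 2.4 FPKM under exposure and 3.9 and 5.9 FPKM without it. Its fall was under the fold threshold with median-ratio scaling (-0.48), with a pseudocount of 1 (-0.50) and without TPN 144 h replicate 2 (-0.48). HPRT1, a reference gene of the study's PCR, had a log2 fold change of 0.07 ± 0.071 (adjusted p = 0.378) in exposed spheroids. SLC27A2, a fatty acid importer, had one of -0.51, under the fold threshold.

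**Figure D5:**
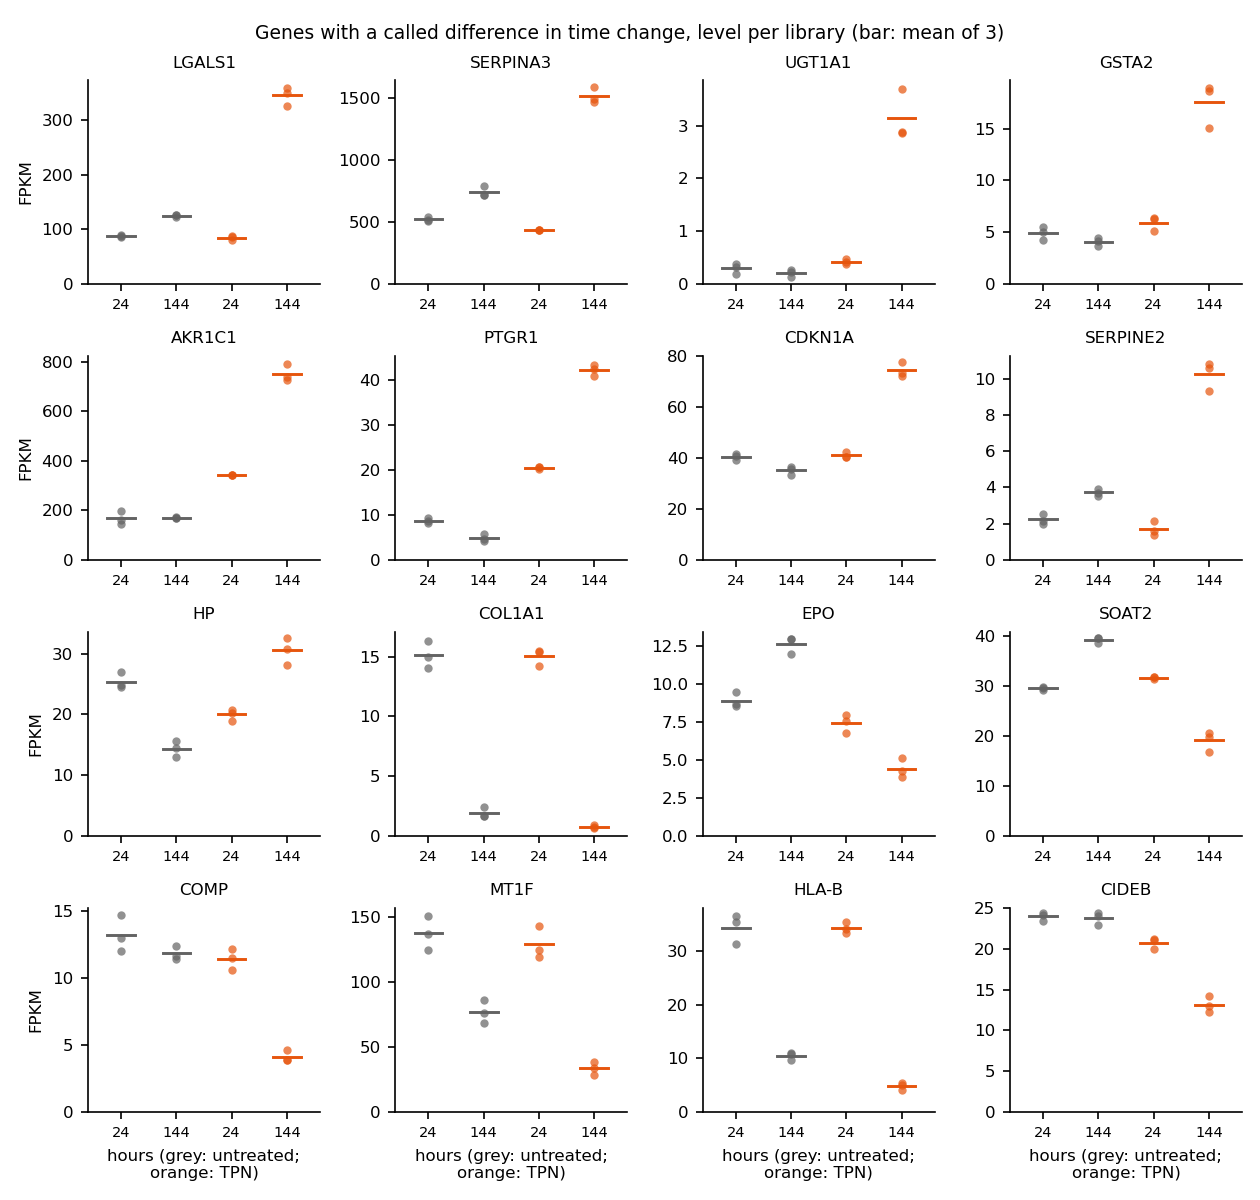
FPKM per library of 16 genes with a called difference in time change, with grey points for untreated and orange points for TPN-exposed spheroids at 24 h and 144 h and a bar at the mean of 3. LGALS1, SERPINA3 and CDKN1A are highest at 144 h of TPN, whereas EPO and SOAT2 have the higher mean at 144 h without TPN (12.7 and 39.3 FPKM) and the lower one with it (4.43 and 19.1 FPKM), and the vertical axes start at 0 and differ between panels.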

How the data were processed

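Spheroid mRNA libraries (strand-specific, sequenced on DNBSEQ) were processed by the authors, who filtered reads with SOAPnuke, mapped them with HISAT2 2.0.4 and Bowtie2 2.2.5 to GRCh38.p13 and quantified genes with RSEM, per the study's methods and the submitters' processing notes. The values deposited by the authors are FPKM per gene and library, and the counts behind them were not used here. FPKM removes depth and length but is relative: a rise of abundant genes lowers the rest. The depth was estimated from 13 to 24 short single-transcript genes per library (under 1500 bases, GENCODE 44). Their FPKM times length lay in a preset low range and was taken to stand for a single fragment. The median gave 13400000 to 14300000 fragments per library. The preset range bounds this estimate, so the closeness of the libraries is partly built in. At a depth of this order, low values rest on few fragments.

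From the table of 16705 genes, 20 overflow lines that hold no gene were left out, and 11713 genes with a mean of at least 0.5 FPKM were tested on log2(FPKM + 0.1). limma 3.58.1 in R 4.3.3 fitted the 4 groups of 3 libraries together, with a trend in the prior variance and Benjamini-Hochberg adjustment over all genes tested. A fold change on this scale understates the change of low genes. A call needed an adjusted p value below 0.05 and a log2 fold change beyond 0.58 in size. The difference in time change was the contrast of the 2 time changes. An exact permutation test of 3 against 3 values cannot give a p below 0.1 and was not used for calls. The fit was tested on simulated data. Figures were drawn with Python 3.11.15 and matplotlib 3.10.9.

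Named genes were the 15 largest rises and falls among called genes with separate libraries and a group mean of at least 5 FPKM, the 8 highest and 8 lowest differences of time change under the same limits, up to 4 members of each gene list with the largest called change, members called against their list, up to 5 genes called in opposite directions each way, and genes named in the study text. APOA1, TTR, SERPINA1, LYZ, PTPRC, KRT7, KRT19, COL1A2, TAGLN, CAV1, CA9, VEGFA, AURKB, BUB3, CCNE2, CDKN1A and HP were chosen after their values were seen, and some genes are not reported here. The genes compared and the gene lists were chosen with earlier results of these data known. Alternatives were other scalings, pseudocounts of 0.01 and 1, other filters, a model of the 6 exposed libraries, a replicate block and the omission of each library. Libraries with the same replicate number in TPN 24 h and TPN 144 h had at most weakly correlated deviations from their group means (0.086, -0.007 and 0.141).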

Additional observations from a re-analysis of the deposited data

Results flagged for a closer look

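Each of these genes had a time change that differed between exposed and untreated spheroids in the limma test of the difference itself (adjusted p value below 0.05 and a log2 difference beyond 0.58). The values are exposed minus untreated, and all are described in the report.

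Among the largest rises, the difference was 1.19 for IGFBP3, 1.10 for IL11, 0.81 for ANGPTL4, 1.03 for EGLN3, 1.15 for PCK1, 0.90 for DUSP5, 0.83 for RASD1, 0.88 for AQP3, 1.67 for VNN1 and 1.46 for EEF1A2. Among the largest falls it was -1.25 for COL1A1, -0.83 for VIM, -1.10 for HLA-B, -0.96 for PGC, -0.86 for MT1G, -1.11 for MT1F, -0.85 for SFXN2, -0.62 for DHRS2, -0.68 for UCP2 and -0.92 for CDKN2C.

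In cell division, hypoxia and the division inhibitors, it was -0.62 for AURKB, -1.24 for EPO, 1.31 for CDKN2B and 1.06 for CDKN1A. In mesenchymal and matrix genes, it was -1.22 for COL3A1, 1.54 for LGALS1, 1.30 for S100A6, 0.70 for ITGA2, 0.68 for TGFB1, 1.83 for SERPINE2 and -1.30 for COMP.

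In lipid genes, the difference was 0.70 for FABP1, 0.91 for APOA4, -0.63 for HADH, -0.64 for CIDEB, -0.59 for TM7SF2 and -1.14 for SOAT2. In acute phase genes, it was 1.43 for HP, 1.30 for SERPINA3, 1.27 for SOCS3 and 0.76 for FGL1. In genes of amino acids and glucose, it was 0.75 for CHAC1, -1.04 for HAL and -0.59 for SLC37A4.

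In redox genes and drug metabolism, it was 2.98 for UGT1A1, 2.80 for ALDH3A1, 1.87 for PTGR1, 1.82 for GSTA2, 1.82 for GSTA1, 1.18 for CYP1A1, 1.10 for CYP2B6, 1.10 for AKR1C1 and -0.69 for CYP4F12. In iron and selenium handling, it was 0.89 for BMP6, 0.83 for SLC40A1 and 0.69 for SELENOH. In growth factors, retinoid carriers and interferon response, it was 0.92 for AREG, 2.01 for CRABP2, -0.74 for RBP5 and 0.87 for IFITM1.

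In the clustered histone genes, whose levels are low and whose reads may be shared, it was 3.61 for H4C8, 3.52 for H2AC15, 2.12 for H2BC5 and -2.39 for H3C15. Among the remaining genes, it was 1.92 for TTC39A, 1.85 for S100A2, 1.82 for DUSP13, 1.76 for TTC9, -1.10 for LCN15, -1.01 for MIXL1 and -1.24 for C1orf210. Single values that lie apart within a group were not tested, since each group has 3 libraries.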

How the results depend on the processing

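The counts of risen and fallen genes stayed within 1.5 times their values under the scaling to the same total, a pseudocount of 0.01, no filter, no variance trend and the fit of the exposed libraries alone. Median-ratio scaling lowered the fallen genes to 1089. A filter of 5 FPKM, which tests fewer genes, gave 608 risen genes and 191 higher and 91 lower differences. With the adjusted p value alone, 2832 genes rose, 6093 fell, and the difference was higher in 1654 and lower in 1911. With a pseudocount of 1, 88 differences were lower, against 195. Leaving out each library in turn gave 1088 to 1138 risen and 1968 to 2070 fallen genes, and 455 to 513 higher and 180 to 217 lower differences. With the replicate block, 1114 genes rose and 2010 fell, and 484 differences were higher and 195 lower. Deviations from the group mean correlated only weakly between libraries of different groups. The correlations were -0.083 to 0.151 for the same replicate number and -0.241 to 0.114 for different numbers. Whether the numbers mark shared experiments was not tested. Of 186 named genes, 176 kept their side of the threshold with median-ratio scaling, 181 with quantile normalization, 182 with a pseudocount of 1 and 186 with the replicate block, and none changed direction under these settings. Beyond the genes noted in the report, ITIH1 (0.45) and HLA-F (-0.54) were under the fold threshold with a pseudocount of 1, as was SLC39A10 (0.54). Levels below about 1 FPKM rest on few fragments, and the causes of these shifts were not tested.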

Other observations

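The deposited table assigns KEGG pathways to genes, and their shares of called genes were read after the values were seen. Beside DNA replication (30 of 35 tested members fell), the repair pathways held many falls. In mismatch repair 17 of 22 genes fell, in homologous recombination 23 of 39 and in the Fanconi anemia pathway 28 of 52, against 17.2% of all genes tested. These pathways share genes with each other and with DNA replication. In terpenoid backbone synthesis, which feeds cholesterol synthesis, 12 of 20 genes fell, and in tryptophan metabolism 13 of 28.

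Rises were frequent among genes of cell surface and secreted signals. Of 99 tested genes of cytokine-cytokine receptor interaction 33 rose, and of 58 of neuroactive ligand-receptor interaction 20 rose, against 9.51% of all genes tested. ABCB4, the phospholipid exporter of the bile canaliculus, rose from 4.16 to 7.91 FPKM, with untreated means of 4.77 and 6.63 FPKM. No test was made of these shares.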
